A study of Mus musculus with 42 samples.

Results

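The genes described here are the nuclear subunit and assembly genes of respiratory complex I, taken as every protein-coding gene whose symbol is Ndufa, Ndufb, Ndufc, Ndufs, Ndufv or Ndufaf followed only by digits. The rule found 44 of the 54232 genes in the count table. No measured value entered it, but the members were chosen with earlier results of these data known. They comprise 7 core subunits, 9 accessory subunits of the matrix arm, 9 accessory subunits of the proximal membrane arm, 10 Ndufb subunits of the distal membrane arm, 8 assembly factors and Ndufa4, which is now assigned to complex IV. Ndufab1 and Ndufb1-ps, which also encode subunits, and Ndufa4l2 do not match the rule.

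Brain RNA of mice was sequenced in 42 libraries, of which 20 carry the label cerebellum and 22 the label hippocampus. Mice ate for 12 weeks either chow with 11% fat, called the control diet, or a western diet with 42% fat, and did or did not carry NaKtide, a peptide that blocks Src signalling by the Na,K-ATPase. NaKtide came from a transgene switched on by doxycycline at 300 mg/kg in either diet. The labels do not say whether mice without NaKtide received doxycycline, and they name neither the transgene's promoter nor strain, sex or age. The series title concerns the Na,K-ATPase of adipocytes, and the design text lists 60 samples of liver and adipose tissue, so the groups rest on the library labels alone. There were 5 libraries per group, except for 6 hippocampus control and 6 hippocampus western diet with NaKtide libraries. The labels do not say that libraries of a group came from separate mice, so p-values measure the spread between libraries, which may be technical.

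Complex I is the entry point of electrons from NADH into the respiratory chain. Its matrix arm holds the flavin and iron-sulphur clusters that carry electrons from NADH to ubiquinone, and its membrane arm pumps protons. The core subunits of the matrix arm are nuclear genes, those of the membrane arm are the mitochondrial mt-Nd genes, and accessory subunits surround both. Assembly factors help build the complex and leave it before it is complete. Neurons depend strongly on this chain for ATP, and inherited defects of many of these genes cause brain disease.

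Library totals ran from 4669374 to 9521002 counts, and the 44 genes took 0.327% to 0.873% of them. The lowest count of any of the 44 genes in any library was 25, and all 44 passed the filter on low counts in every fit. The region labels were checked against markers. Gabra6, which defines cerebellar granule cells, reached 211 CPM (counts scaled to a common library total) in cerebellum western diet replicate 3, 121 in cerebellum control NaKtide replicate 5 and 20.3 in cerebellum control replicate 1, but was below 3 CPM in every other library labelled cerebellum. In libraries labelled hippocampus, Gabra6 was below 1 CPM except in western diet replicate 4, which had 23.6 CPM and 71.3 CPM of the Purkinje cell gene Pcp2, where the others had at most 6.78. In this label the dentate granule cell marker Lct ranged from 0 to 66.9 CPM. Of 861 library pairs, hippocampus control replicates 5 and 6 differed least, with a mean chi-square of 2.66 and a median of 0.711 per gene, and cerebellum western NaKtide replicate 5 stood next to both (4.05 and 6.60). The pair with the fourth smallest value, unrelated by label, had 7.35. These 3 libraries also held Xist RNA, at 9.38 to 38.0 CPM, as did hippocampus western NaKtide replicate 6 at 153.5 CPM, and every other library was below 1 CPM.

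Promoter sequences are shown for 5 members with large changes in the comparison that follows, because motifs of known regulators of respiratory genes lie close to their start sites. Each runs 5′ to 3′ on the gene's strand from 250 bases before to 50 bases after the RefSeq start on GRCm38.p6, and capitals mark every match to a searched motif. Ndufs7 encodes a core subunit, Ndufs6 a zinc-binding accessory subunit of the matrix arm, Ndufa11 and Ndufb7 membrane-arm subunits, and Ndufaf8 an assembly factor.
Ndufs7, chr10:80249199-80249498, + strand: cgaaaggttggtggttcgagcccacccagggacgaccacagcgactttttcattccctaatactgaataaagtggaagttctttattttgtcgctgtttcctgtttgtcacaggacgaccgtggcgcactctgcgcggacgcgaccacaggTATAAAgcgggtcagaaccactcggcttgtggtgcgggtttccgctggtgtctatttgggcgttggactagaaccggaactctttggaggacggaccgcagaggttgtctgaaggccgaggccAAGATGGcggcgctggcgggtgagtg
Ndufs6, chr13:73328433-73328732, - strand: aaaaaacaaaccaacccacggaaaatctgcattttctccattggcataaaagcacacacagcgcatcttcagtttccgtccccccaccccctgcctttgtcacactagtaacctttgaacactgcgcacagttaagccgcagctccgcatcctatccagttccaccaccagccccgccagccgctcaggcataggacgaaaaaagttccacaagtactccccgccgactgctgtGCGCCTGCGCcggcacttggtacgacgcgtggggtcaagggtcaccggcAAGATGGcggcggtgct
Ndufa11, chr17:56717512-56717811, + strand: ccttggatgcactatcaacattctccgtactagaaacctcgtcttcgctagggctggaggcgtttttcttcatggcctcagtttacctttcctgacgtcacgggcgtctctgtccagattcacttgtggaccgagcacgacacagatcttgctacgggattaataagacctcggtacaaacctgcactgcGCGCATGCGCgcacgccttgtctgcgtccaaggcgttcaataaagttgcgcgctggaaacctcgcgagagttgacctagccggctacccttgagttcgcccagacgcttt
Ndufb7, chr8:83566508-83566807, + strand: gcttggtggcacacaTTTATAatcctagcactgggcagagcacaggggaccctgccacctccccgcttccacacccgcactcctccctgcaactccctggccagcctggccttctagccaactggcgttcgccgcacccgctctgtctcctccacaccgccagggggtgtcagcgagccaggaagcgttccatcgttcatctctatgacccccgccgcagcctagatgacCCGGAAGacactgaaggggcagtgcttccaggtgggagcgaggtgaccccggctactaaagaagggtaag
Ndufaf8, chr11:120098684-120098983, + strand: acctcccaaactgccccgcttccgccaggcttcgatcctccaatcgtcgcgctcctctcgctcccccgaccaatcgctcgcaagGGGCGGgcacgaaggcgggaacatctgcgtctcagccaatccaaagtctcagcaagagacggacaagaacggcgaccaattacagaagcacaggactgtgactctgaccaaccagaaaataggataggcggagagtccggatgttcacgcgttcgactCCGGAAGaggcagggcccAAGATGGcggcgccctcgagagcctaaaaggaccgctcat

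In Ndufs7, Ndufs6 and Ndufaf8 the motif AAGATGG of YY1 begins 24, 33 and 10 bases after the start site. The NRF1 motif (GCGCA, any base, GCGC) begins 16 bases before the start in Ndufs6 and 60 bases before it in Ndufa11. The Ets-type motif CCGGAAG, bound by factors such as GABPA, begins 20 bases before the start in Ndufb7 and 8 bases before it in Ndufaf8. A GC box (GGGCGG) lies in Ndufaf8, and TATAAA lies 99 bases before the start in Ndufs7 and, on the opposite strand, 235 bases before it in Ndufb7. The NRF1 match of Ndufs6 is also on the opposite strand.

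RefSeq promoters were found for 39 of the 44 genes. Searching both strands, the NRF1 motif was in 9 of the 39 (23.1%, against 5.19% of 27025 promoters of the same length) and the YY1 motif in 8 (20.5% against 7.28%). The Ets-type motif was in 6 (15.4% against 9.93%), the GC box in 20 (51.3% against 38.2%) and TATAAA in 4 (10.3% against 15.7%). The NRF1 and GC box letters can overlap in GC-rich sequence. A match is a run of letters and not a measured binding site.

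Per length, Ndufb9 had the highest level, with 268.7 ± 102 FPKM (SD, n = 42 libraries), followed by the membrane-arm subunit Ndufa13 (232 ± 87.6) and Ndufs5 (221.3 ± 83.6). These levels differed by less than their spread over libraries. The lowest levels belonged to assembly factors, with 4.99 ± 1.22 FPKM for Ndufaf6, 5.25 ± 0.974 for Ndufaf4 and 8.09 ± 2.66 for Ndufaf2. Core subunits stood apart from each other on the same scale, with 86.3 ± 27.9 FPKM for Ndufs7 and 13.3 ± 1.72 for Ndufs1. The gene length behind FPKM equalled the union of annotated exons for 37 of the 44 genes, retained introns included, so a long union such as the 8086 bases of Ndufs1 or the 4522 of Ndufb7 lowers the FPKM.

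Summed over the 44 genes, levels were highest in cerebellum control libraries, at 7699 ± 1600 CPM (SD, n = 5; range 5453 to 9854), and lowest in hippocampus western diet libraries, at 3951 ± 1001 CPM (n = 5; 3130 to 5247). Hippocampus control NaKtide libraries had 6870 ± 1052 CPM (n = 5), hippocampus western NaKtide 5890 ± 963 (n = 6) and hippocampus control 5051 ± 1301 (n = 6). The other cerebellum groups lay close together, at 5613 ± 1703 CPM with the western diet and NaKtide, 5419 ± 500.3 with the western diet and 5077 ± 1011 with the control diet and NaKtide (n = 5 each). Within hippocampus western, replicates 2, 3 and 4 formed the low end of all 42 libraries (3130, 3175 and 3393 CPM), while replicates 1 and 5 reached 4810 and 5247. All neighbouring groups in this order had overlapping ranges.

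**Figure D1:**
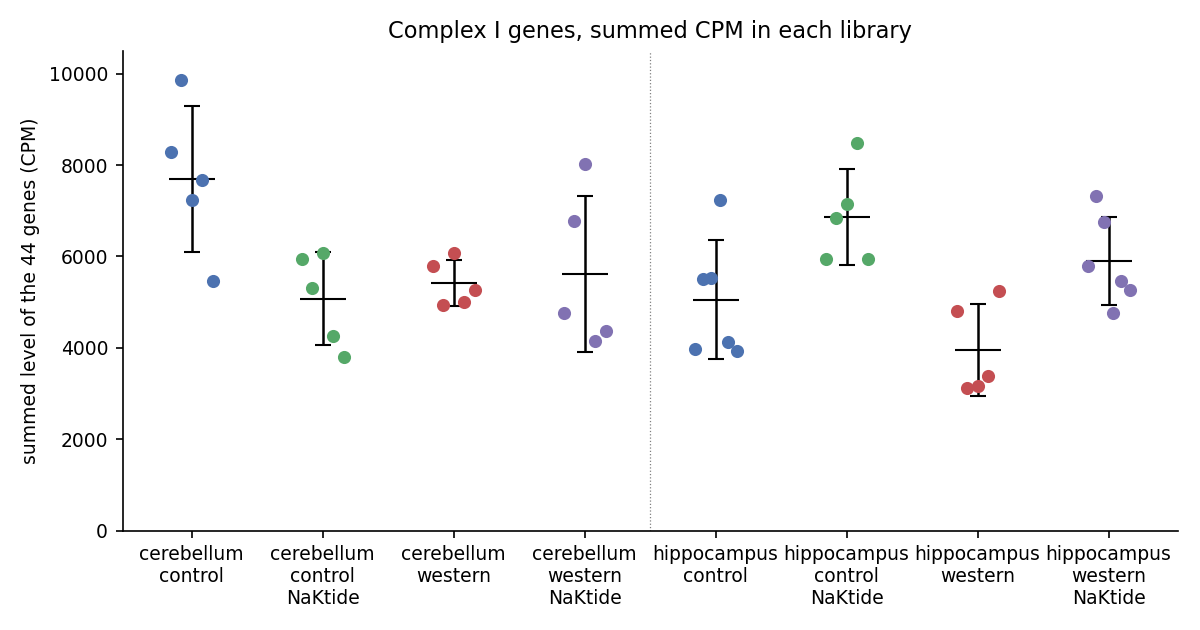
Summed level of the 44 complex I genes in CPM (y axis) for each library of the 8 groups (x axis), with points for libraries and bars for the group mean and SD. Cerebellum control holds the highest library at 9854 CPM and hippocampus western the 3 lowest, from 3130 to 3393.

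In libraries labelled hippocampus, NaKtide on the western diet came with more RNA of most complex I genes. Of the 44, 27 rose and 1 fell against the western diet alone (edgeR quasi-likelihood test, adjusted p under 0.05 over 16442 genes), where 33.7% of all genes tested were called, 17.4% higher and 16.3% lower. The median log2 fold change of the 44 genes was 0.57, against 0.05 for all genes, and 42 of 44 had a positive value where 53.3% of all genes did. An unadjusted p under 0.05 was reached by 36 of the 44 and by 7377 of all 16442 genes. These are bulk libraries, so fewer cells of a type and less RNA per cell cannot be told apart.

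**Figure D2:**
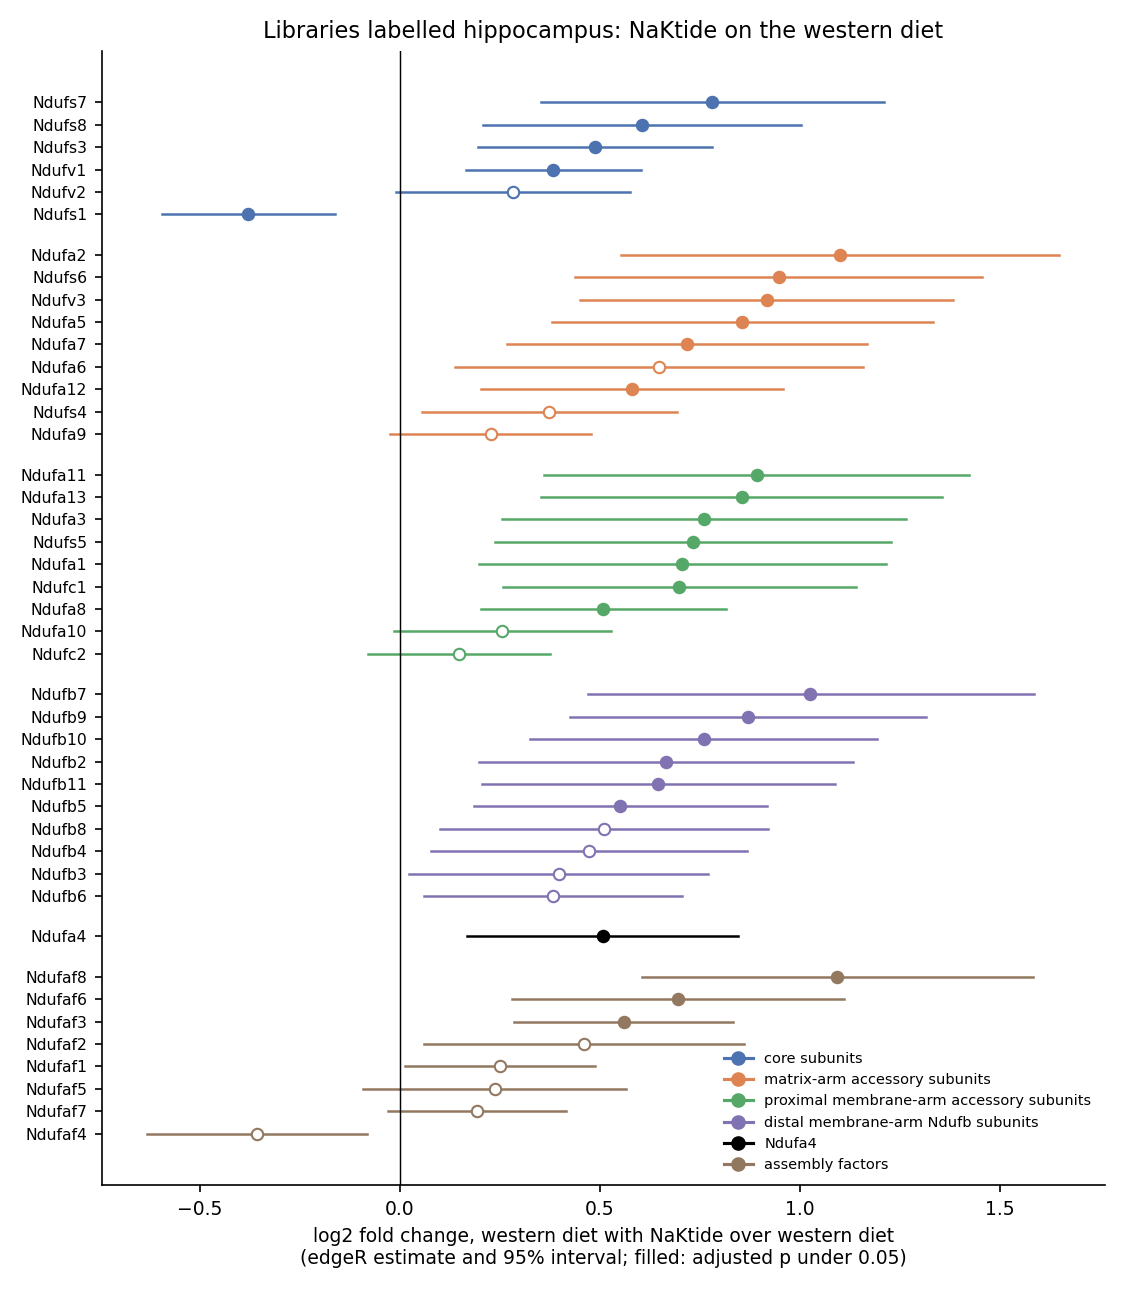
Log2 fold change of the complex I genes, 1 core subunit left out (x axis, edgeR estimate with its 95% interval) between the western diet with and without NaKtide in libraries labelled hippocampus, with genes in blocks of role (y axis) and filled points at adjusted p under 0.05. Filled points lie from 0.38 to 1.10 except Ndufs1 at -0.38.

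Among the 7 core subunits, which hold the flavin and the iron-sulphur clusters, 4 rose and 1 fell. Ndufs7 (ENSMUSG00000020153, chr10:80249121-80256794) carries the cluster that hands electrons to ubiquinone. It had 119, 77.9, 71.2, 66.5 and 141 CPM in the western diet libraries, and with NaKtide a low of 125, a median of 170.0 and a high of 194 CPM. Replicates 2, 3 and 4 of the western diet were low, and the groups overlapped through replicate 5. The log2 fold change was 0.78 (SE 0.22, edgeR adjusted p = 0.0112). Ndufv1, which binds the flavin and NADH, rose by 0.38, Ndufs3 by 0.49 and Ndufs8 by 0.61. Ndufv2 (0.28) did not pass the test.

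Ndufs1 (ENSMUSG00000025968, chr1:63143596-63176833), the largest core subunit, which holds several iron-sulphur clusters, went the other way. It had 119.5, 124, 122, 128 and 122 CPM on the western diet, and with NaKtide a low of 77.6, a median of 96.9 and a high of 113. Every western diet library lay above every library with NaKtide, while hippocampus control (102 ± 9.71, n = 6) and control NaKtide (101 ± 10.3, n = 5) lay near the level with NaKtide. The log2 fold change was -0.38 (SE 0.11, edgeR adjusted p = 0.0135). At 8086 bases its exon length is the longest of the 44 genes, and with the trend of fold change on length removed the value was -0.08 (adjusted p = 0.631).

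Of the 9 matrix-arm accessory subunits, 6 rose. Ndufa2 (ENSMUSG00000014294, chr18:36742332-36744557), a subunit of the NADH-binding module, had 83.1, 49.3, 47.8, 46.1 and 102.5 CPM on the western diet, and with NaKtide a low of 98.0, a median of 152 and a high of 184. The groups overlapped only through western diet replicate 5. Its log2 fold change of 1.10 (SE 0.28, edgeR adjusted p = 0.00696) was the highest of the 44. Ndufs6 (0.95) and Ndufv3 (0.92), also at the NADH-binding end of the arm, Ndufa5 (0.86), Ndufa7 (0.72) and Ndufa12 (0.58) rose as well. Ndufa6 (0.65), Ndufs4 (0.37) and Ndufa9 (0.23) did not pass.

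Of the 9 accessory subunits of the proximal membrane arm, 7 rose. Ndufa13 (ENSMUSG00000036199, chr8:69894180-69902558), also studied as a regulator of cell death, had 235, 122, 129, 136 and 248 CPM on the western diet, and with NaKtide a low of 241, a median of 287 and a high of 414.5. Western diet replicate 5 lay within the range with NaKtide, and the other 4 lay below it. The log2 fold change was 0.85 (SE 0.26, edgeR adjusted p = 0.0153). Ndufa11 (ENSMUSG00000002379, chr17:56717767-56722141) had the largest value of the set, 0.89 (SE 0.27, edgeR adjusted p = 0.0163), with 78.7 ± 33.2 CPM (SD, n = 5) on the western diet and 146 ± 34.4 (n = 6) with NaKtide. Ndufa3, Ndufs5, Ndufa1, Ndufc1 and Ndufa8 rose by 0.51 to 0.76, and Ndufa10 (0.26) and Ndufc2 (0.15) did not pass.

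Of the 10 Ndufb subunits of the distal membrane arm, 6 rose. Ndufb9 (ENSMUSG00000022354, chr15:58933756-58939488) had 192, 133, 133, 138 and 208 CPM on the western diet, and with NaKtide a low of 240.5, a median of 253 and a high of 407. All libraries with NaKtide lay above all western diet libraries. Its log2 fold change was 0.87 (SE 0.23, edgeR adjusted p = 0.00799). Ndufb7 (ENSMUSG00000033938, chr8:83566671-83571626) had the largest value of the set, 1.03 (SE 0.28, edgeR adjusted p = 0.0106), with 86.3 ± 36.3 CPM (SD, n = 5) on the western diet and 176 ± 41.4 (n = 6) with NaKtide. Ndufb10, Ndufb2, Ndufb11 and Ndufb5 rose by 0.55 to 0.76, while Ndufb8, Ndufb4, Ndufb3 and Ndufb6, at 0.38 to 0.51, did not pass.

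Ndufa4 (ENSMUSG00000029632, chr6:11900292-11907497) had 252.5, 153, 149, 177 and 251.5 CPM on the western diet, and with NaKtide a low of 239, a median of 257 and a high of 346.5. The 2 high western diet libraries, replicates 1 and 5, lay within the range with NaKtide. The log2 fold change was 0.51 (SE 0.17, edgeR adjusted p = 0.0284).

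Of the 8 assembly factors, 3 rose. Ndufaf8 (ENSMUSG00000078572, chr11:120098928-120100705), a partner of the assembly factor Ndufaf5, had 13.2, 9.66, 10.5, 11.4 and 15.98 CPM on the western diet, and with NaKtide a low of 18.9, a median of 25.2 and a high of 35.02. All libraries with NaKtide lay above all western diet libraries. The log2 fold change was 1.09 (SE 0.25, edgeR adjusted p = 0.00442), the smallest adjusted p of the 44. Ndufaf6 rose by 0.70 and Ndufaf3, which acts with Ndufaf4 early in assembly, by 0.56. Ndufaf4 itself had -0.36 (SE 0.14, edgeR adjusted p = 0.0525). Ndufaf2 (0.46), Ndufaf1 (0.25), Ndufaf5 (0.24) and Ndufaf7 (0.19) did not pass.

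**Figure D3:**
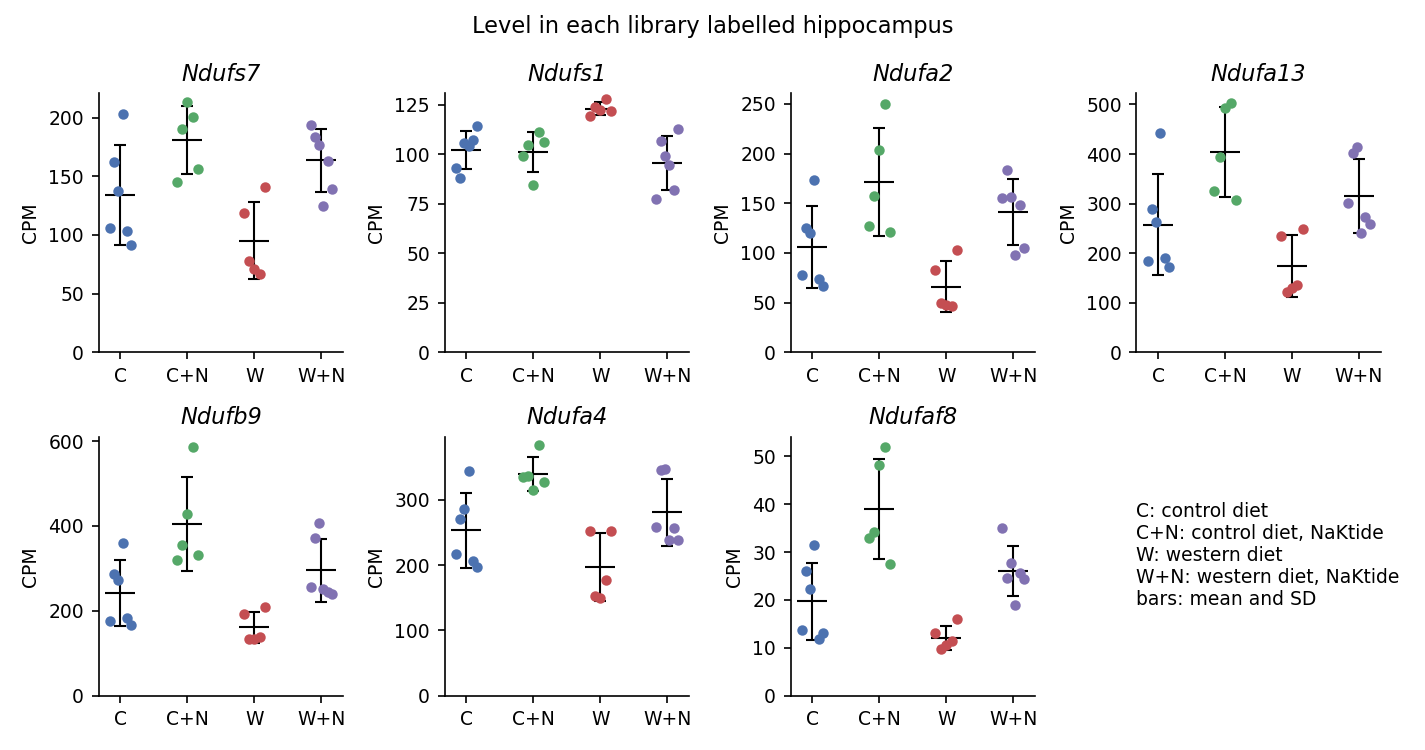
Level in CPM (y axis) of 7 genes in each library labelled hippocampus, by diet and NaKtide (x axis), with points for libraries and bars for mean and SD. In 6 genes western diet replicates 2, 3 and 4 are the lowest points of their group, and in Ndufs1 the 5 western diet libraries lie above all others, from 119.5 to 128 CPM.

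Over the 44 genes, the 6 libraries with NaKtide and the 5 without it did not overlap for Ndufaf8, Ndufs3, Ndufb9, Ndufa7 and Ndufv3, which were higher, and Ndufs1, which was lower. The other 38 overlapped. Neither here nor in the later comparisons was the share of all genes without overlap computed, so whether these counts are unusual was not tested. Single libraries moved the count of 27. It was 12, 12 and 13 without western diet replicate 2, 3 or 4, where 3807, 4058 and 3809 of all genes were called. It was 17 and 18 without western NaKtide replicate 2 or 3, where 5281 and 5095 were called. It was 11 without the 3 western NaKtide libraries with most mitochondrial counts, where 3006 were called. With all libraries 5542 genes were called. Ndufa2, Ndufaf8, Ndufb7, Ndufs6 and Ndufv3 were called higher under all 34 alternatives run. Some of these only left out or summed hippocampus control or control NaKtide libraries. Those are not compared here, and each such alternative kept all 27 calls.

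Gene length moved with these fold changes. Over all genes tested, the log2 fold change correlated with log length (r = -0.40 across genes, which are not independent replicates), and the median was 0.48 in the shortest length quartile, then 0.14, -0.08 and -0.28. The shares called higher were 36%, 17.6%, 10.5% and 5.42%. Of the 44 genes, 29 were in the shortest quartile, 11, 3 and 1 in the others. In the shortest quartile 20 of 29 rose and their median was 0.65, in the next 4 of 11 rose with a median of 0.38, and in the third all 3 rose. Lengths are those behind FPKM, retained introns included, and the trends removed below use them too. After Ndufs1 the longest exon unions were those of Ndufb2 (5628 bases), Ndufb5 (4995) and Ndufb7 (4522), which rose. Whether their main transcripts are shorter was not checked. Of the 44 genes, 21, 10 and 3 of those in the 3 shorter quartiles lay above the median of their quartile. With the length trend removed, 18 rose and 0 fell, where 4546 of all genes were called. With trends on length and GC content removed 14 rose, 11 of them among the 27, with a median of 0.36, where 3479 were called. In 38 of 42 libraries the mean of the 44 genes and the median of the shortest quartile deviated to the same side of their means over all libraries. The part of length in the result was not tested further.

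**Figure D4:**
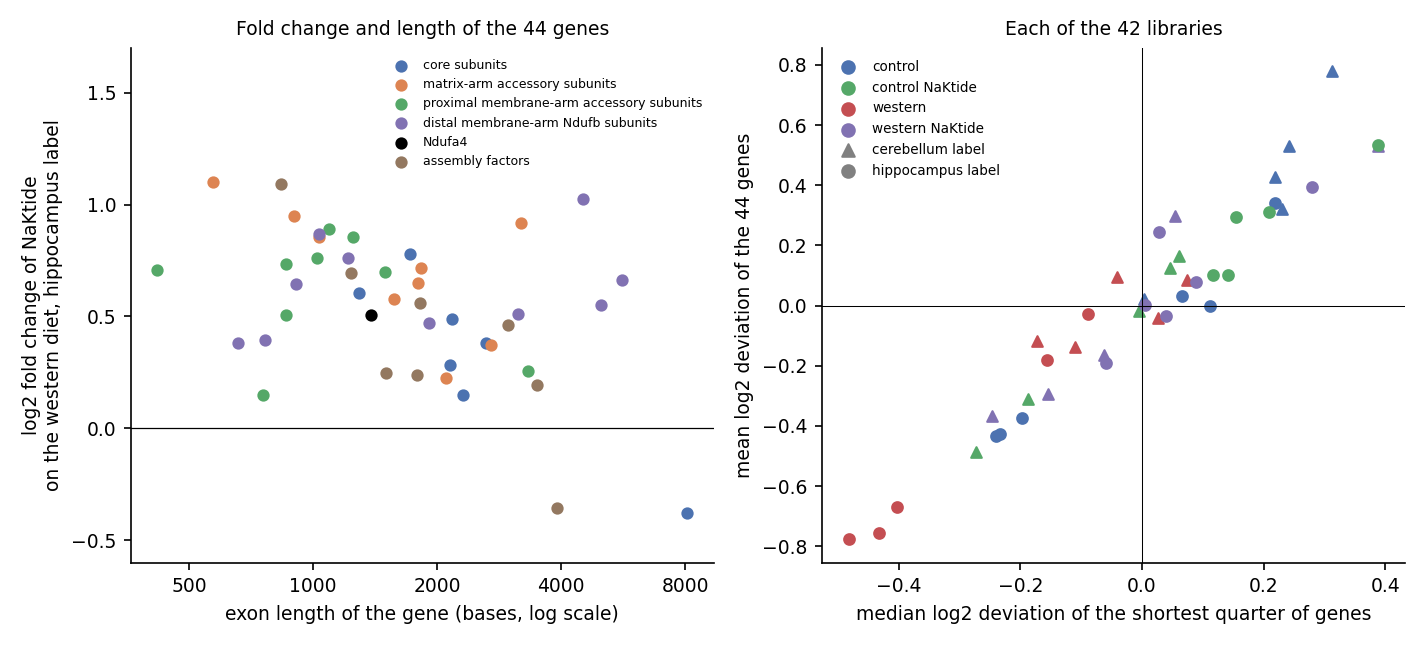
Left, log2 fold change of NaKtide on the western diet, hippocampus label (y axis) against exon length in bases (x axis, log scale) for the 44 genes. Right, for each of the 42 libraries, the mean log2 deviation of the 44 genes (y axis) against the median log2 deviation of the shortest quartile of all genes (x axis). Both deviations have the same sign in 38 libraries, and hippocampus western replicates 2, 3 and 4 lie at the lower left.

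Other readouts also differed between these groups, where 17.4% of all genes tested were called higher and 16.3% lower. Mitochondrial protein genes took 15.6%, 11.1% and 8.92% of the counts in western NaKtide replicates 3, 1 and 4, but 5.91%, 5.60% and 5.98% in replicates 2, 5 and 6, which lay within the 4.85% to 7.29% of the western diet libraries. Of 10 microglial markers 7 rose, with sums of 511 to 708.5 CPM against 289 to 459. Of 5 blood markers 4 rose (737 to 3462 against 240.1 to 1245). Of 10 striatal markers 5 rose, with sums of 385 to 5979 CPM against 241 to 664. Of 8 dentate granule markers 5 fell (134 to 272 against 243 to 626.5), as did 4 of 8 general neuronal markers. No marker of these lists was at 0 in a whole group. Of 8 astrocyte markers 1 rose and 4 fell, 4 of 7 cerebellar and 2 of 9 pyramidal cell markers tested fell, 1 of 8 oligodendrocyte and 1 of 7 hypothalamic markers rose, and 0 thalamic, choroid plexus, pituitary or endothelial markers passed the edgeR test. The part of tissue makeup in the complex I result was not tested.

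The other complexes of the chain changed by different shares of their genes in the same comparison. It called 17.4% of all genes tested higher and 16.3% lower. Of 11 nuclear complex IV genes 9 rose (median 0.69), with 0.73 for Cox4i1 and 0.75 for Cox5b. Of 15 genes of complex V, the ATP synthase, 9 rose (median 0.61), with 1.08 for Atp5e and -0.10 for Atp5a1, which did not pass. In complex III 4 of 9 rose, among them Uqcr11 (0.95), and Uqcrc2 fell by 0.39. In complex II Sdhb (0.39) and Sdhc (0.45) of 4 rose. The 7 mitochondrial mt-Nd genes had values from 0.45 to 0.95, and 0 passed (edgeR, lowest adjusted p 0.0530, for mt-Nd5).

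For NaKtide on the western diet in the hippocampus label, 17.4% of all genes tested were called higher and 16.3% lower. Of 11 further assembly genes, Ecsit (0.39) and Foxred1 (0.46) rose and Acad9, which works with Ecsit in the same assembly complex, fell by 0.55. Ndufb1-ps rose by 0.66, and Ndufab1, the acyl carrier protein of the complex, had 0.38 (edgeR adjusted p = 0.0512). Of 12 regulators of mitochondrial biogenesis 0 rose and 4 fell. These were the coactivator Ppargc1a (-1.06), Gabpa (-0.65), Yy1 (-0.52) and Tfb2m (-0.49), while Nrf1 had 0.28 (edgeR adjusted p = 0.0997). Of 10 genes used as markers of mitochondrial mass, Tomm40 (0.38) and Phb2 (0.33) rose, Tomm20 fell by 0.43, and the median was -0.02.

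The other comparisons in libraries labelled hippocampus called 0 of the 44 genes, and 0% of all genes were called in each. Except for NaKtide on the control diet, which has none of those libraries, they share libraries with the comparison above. All 4 groups of the label share 1 estimate of the spread. With the western diet against the control diet without NaKtide, 42 of 44 values were negative and the median was -0.38, against -0.03 for all genes. An unadjusted p under 0.05 was reached by 20 of the 44 and by 4046 of all 16442 genes. DESeq2 called 1 of the 44 lower. The 0% of all genes above is for edgeR, and the share called by DESeq2 is not given here. That call therefore cannot be read as specific to complex I. The smallest p belonged to Ndufaf3 (-0.44, SE 0.14, edgeR adjusted p = 0.0999), Ndufv3 (-0.71, adjusted p = 0.106) and Ndufaf8 (-0.72, adjusted p = 0.113). Ndufs1 was the single gene of the 44 without overlap. It was higher on the western diet (123 ± 3.24 against 102 ± 9.71 CPM), with a log2 fold change of 0.26 (edgeR adjusted p = 0.157). With 2 surrogate variables in the fit, 21 of the 44 were lower and 1 higher, among 2581 genes called.

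NaKtide on the control diet gave a median of 0.42 in the hippocampus label, with 40 of 44 values positive and 0 called by edgeR or DESeq2. Of the 44, 23 reached an unadjusted p under 0.05, as did 2720 of all 16442 genes tested. The smallest p belonged to Ndufaf8 (0.99, SE 0.24), Ndufb9 (0.75, SE 0.22) and Ndufa5 (0.80, SE 0.24), each with an edgeR adjusted p of 0.210. Ndufaf8 had 33.0, 34.2, 48.2, 52.0 and 27.6 CPM with NaKtide, and a low of 11.9, a median of 18.0 and a high of 31.5 in the control libraries. Control replicate 4 was the single library that overlapped with those carrying NaKtide. Replicates 3 and 4 with NaKtide, which had the most Ndufaf8, also held pituitary marker sums of 478 and 651 CPM, against 4.50 to 17.7 in the other 3 and 3.99 to 6.12 in the control libraries. Their choroid plexus marker sums were 5903 and 7929 CPM (553 to 4589 in the other 3, 203 to 6374 in controls). Mitochondrial protein genes took 10.4% and 10.2% of their counts, against 5.21% to 7.64% in controls. The median of the 44 genes was 0.42 without replicate 3 and 0.31 without replicate 4, and the part of these readouts was not tested further. Ndufaf4 was again on the other side, at 16.3 ± 1.26 against 21.3 ± 4.14 CPM (log2 fold change -0.38, edgeR adjusted p = 0.221).

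With NaKtide, the western diet against the control diet gave a median of -0.20 in the hippocampus label and 0 of the 44 called by edgeR or DESeq2. An unadjusted p under 0.05 was reached by 4 of the 44 and by 1756 of all genes. The smallest p belonged to Ndufaf8 (-0.61), Ndufa1 (-0.55) and Ndufb9 (-0.48), with edgeR adjusted p of 0.421 for the first and 0.454 for the others. The difference between the NaKtide effects on the 2 diets had a median of 0.11 and 0 of the 44 called by edgeR or DESeq2. It had an unadjusted p under 0.05 for 2 of the 44 and for 2399 of all genes. Its smallest p belonged to Ndufs1 (-0.37, SE 0.16, edgeR adjusted p = 0.278), Ndufaf6 (0.65, adjusted p = 0.319) and Ndufv1 (0.29, adjusted p = 0.407). The NaKtide effect on complex I genes was therefore not shown to differ between diets.

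**Figure D5:**
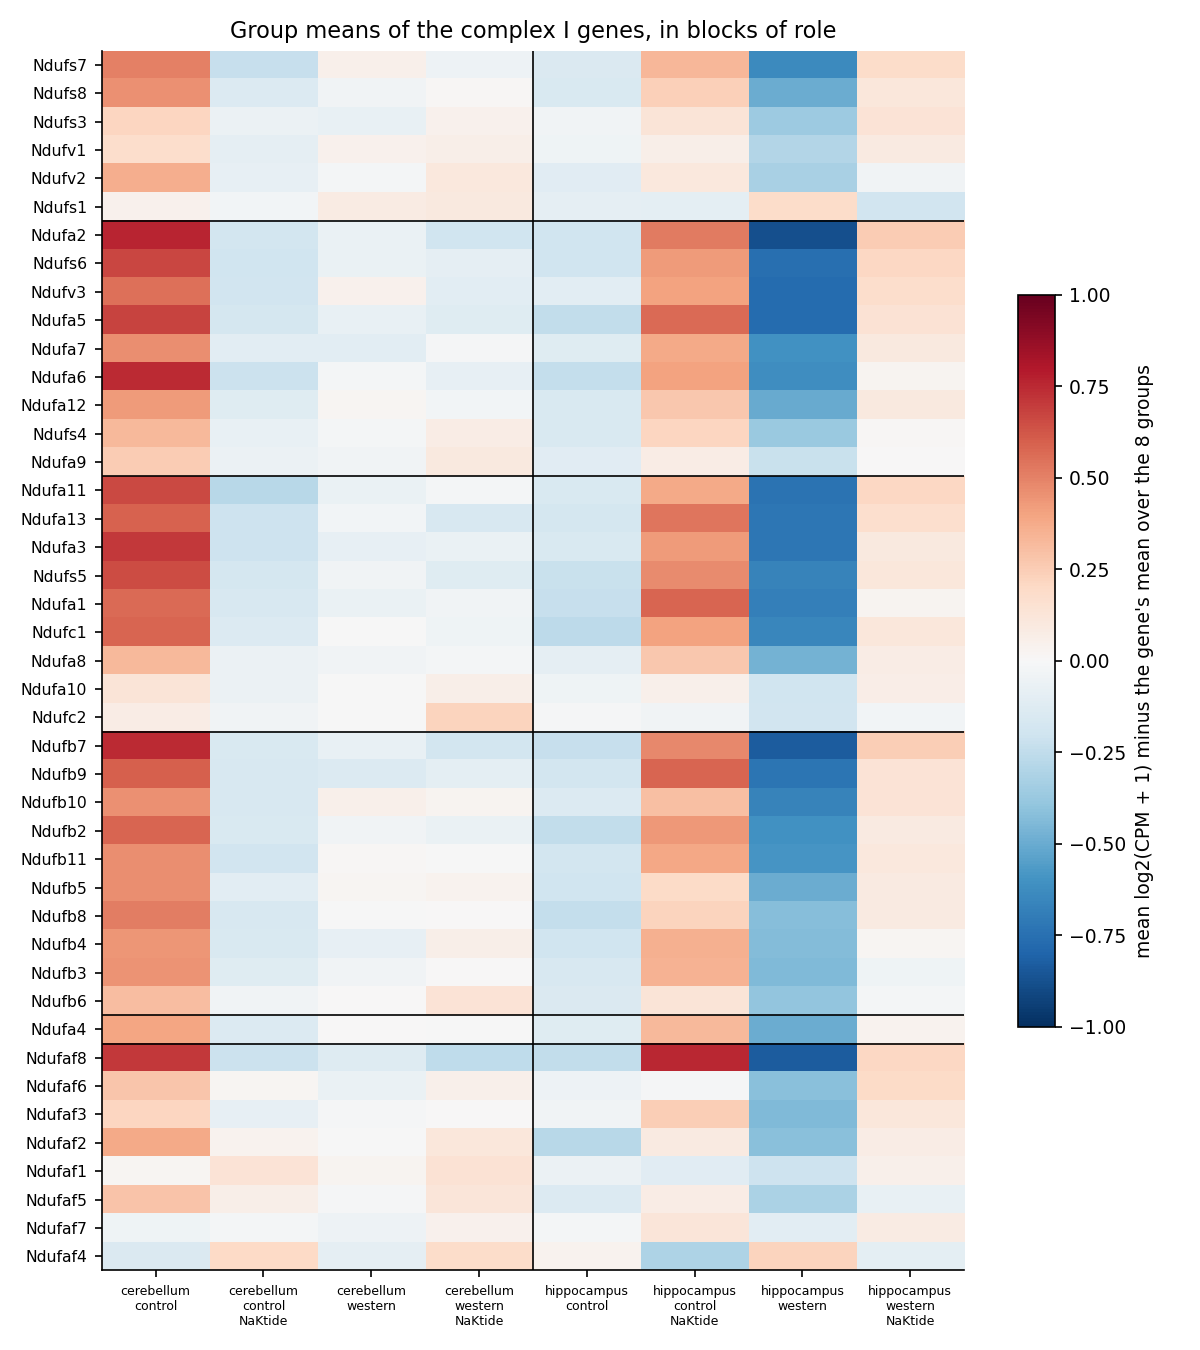
Mean log2(CPM + 1) of each complex I gene, 1 core subunit left out (y axis, in blocks of role) in each of the 8 groups (x axis) minus the gene's mean over the groups, as colour. Most genes are high in cerebellum control and hippocampus control NaKtide and low in hippocampus western, and Ndufs1 and Ndufaf4 do not follow that pattern.

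In libraries labelled cerebellum 0 of the 44 genes passed the test in any comparison. NaKtide on the control diet gave a median of -0.57 against 0.02 for all genes, with 41 of 44 values negative. Of the 44, 30 reached an unadjusted p under 0.05, as did 4816 of all 16338 genes tested. At the adjusted threshold 0.00612% of all genes were called. The smallest p belonged to Ndufa3 (-0.93, SE 0.24), Ndufaf8 (-0.94, SE 0.25) and the matrix-arm subunit Ndufa6 (-0.97, SE 0.27), each with an edgeR adjusted p of 0.0908. Ndufaf8 had 39.0, 44.7, 36.2, 38.9 and 26.6 CPM in the control libraries and 22.7, 20.6, 25.1, 15.7 and 12.7 with NaKtide. Control replicate 5 was the lowest control library and still lay above all 5 with NaKtide. Ndufa3 was the other gene of the 44 without overlap (223 ± 52.4 against 117 ± 26.02 CPM, n = 5 each).

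DESeq2 called 16 of the 44 lower in that comparison, among 1360 genes called. Without cerebellum control replicate 5, edgeR called 26 lower and 1 higher, among 4386 genes called. Without cerebellum western NaKtide replicate 3, which is not among the compared groups but shares the estimate of the spread, edgeR called 19 lower. In that fit 1389 of all genes were called. Control replicates 1 to 4 differed from replicate 5 in other readouts, with 8.995% to 9.998% of counts in mitochondrial protein genes against 6.94%. Their oligodendrocyte marker sums were 13040 to 21230 CPM against 4715 in replicate 5 and 2130 to 9182 in the libraries with NaKtide. Blood marker sums were 2307 to 5938 CPM against 945.5 and 344 to 1229, and pituitary marker sums 30.4 to 332 CPM against 7.69 and 2.08 to 28.2. The median of the shortest length quartile of all genes was -0.34 in this comparison. With 2 surrogate variables the median of the 44 genes was -0.0059. The part of these readouts was not tested.

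The western diet without NaKtide, which shares the control libraries, gave a median of -0.48 against 0.05 for all genes, with 41 of 44 values negative. Of the 44, 25 reached an unadjusted p under 0.05, as did 3192 of all 16338 genes tested. At the adjusted threshold 0.00612% of all genes were called. The smallest p belonged to Ndufaf8 (-0.86, SE 0.25), Ndufa3 (-0.82, SE 0.24) and Ndufb9 (-0.75, SE 0.23), each with an edgeR adjusted p of 0.164. Ndufv2, which holds an iron-sulphur cluster, was the single gene of the 44 without overlap. It had 185 ± 12.3 CPM on the western and 243 ± 30.04 on the control diet (n = 5 each). DESeq2 called 0 of the 44 and 153 of all genes. Without cerebellum control replicate 5, edgeR called 11 lower, among 841 genes called.

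The interaction of diet and NaKtide in the cerebellum label had a median of 0.66. Of the 44, 0 were called by edgeR or DESeq2, where edgeR called 0.00612% of all genes. An unadjusted p under 0.05 was reached by 24 of the 44 and by 2844 of all 16338 genes. The smallest p belonged to Ndufa3 (1.02, SE 0.34), Ndufa11 (1.09, SE 0.38) and Ndufv2 (0.60, SE 0.23), each with an edgeR adjusted p of 0.251. On the western diet NaKtide gave a median of 0.07. An unadjusted p under 0.05 was reached by 1 of the 44 genes, Ndufaf4 (0.30, SE 0.12, edgeR adjusted p = 0.9999), and by 679 of all genes. With NaKtide, the diet gave a median of 0.14 and 1 such gene, Ndufc2 (0.28, SE 0.12, edgeR adjusted p = 0.999), against 396 of all genes. In both, 0% of all genes were called, and DESeq2 called 0 of the 44.

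Between the region labels in control mice, 4 of the 44 genes were lower in libraries labelled hippocampus and 0 higher, where 2.2% of all 17088 genes tested were called, 0.96% higher and 1.24% lower. These were Ndufaf8 (-0.91, SE 0.24, edgeR adjusted p = 0.0437), the ubiquinone-module subunit Ndufa5 (-0.93, adjusted p = 0.0437), Ndufa6 (-0.98, adjusted p = 0.0445) and Ndufc1 (-0.87, adjusted p = 0.0477). Ndufa5 had 264.5 ± 74.8 CPM (SD, n = 5) in cerebellum control and 139 ± 45.3 (n = 6) in hippocampus control, with overlapping ranges. The median over the 44 genes was -0.59, against 0.01 for all genes. Of the 44, 34 reached an unadjusted p under 0.05, as did 4956 of all 17088 genes. The fit treated libraries of the 2 labels as independent, and whether they pair by mouse was not checked.

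The most changed or lowest-p members of the other roles did not pass in that comparison. They were Ndufv2 (-0.48, edgeR adjusted p = 0.0576) and Ndufs7 (-0.64, adjusted p = 0.0710) of the core, Ndufb8 (-0.76, adjusted p = 0.0515), Ndufb7 (-0.95, adjusted p = 0.0530) and Ndufa4 (-0.51, adjusted p = 0.0695). Ndufaf4 had the highest value, 0.20 (adjusted p = 0.297). The count of 4 rested on single libraries. It was 32 without cerebellum control replicate 5 and 32 without hippocampus control replicate 4, where 4334 and 2503 of all genes were called. It was 0 without any 1 of the other 4 cerebellum controls. It was also 0 without hippocampus control replicate 1, 3, 5 or 6, and 1 without replicate 2. DESeq2 called 27 lower, among 1684 genes called. Leaving out a library of a group that was not compared gave up to 24. That was without cerebellum western NaKtide replicate 3, where 1601 genes were called.

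In western diet mice with NaKtide, 0 of the 44 genes differed between the region labels by edgeR or DESeq2, where 1.75% of all genes were called, 1.39% higher and 0.357% lower. The median was 0.06. Of all 17088 genes tested 2817 reached an unadjusted p under 0.05, and of the 44 genes 3 did. These were Ndufs1 (-0.29, SE 0.10, edgeR adjusted p = 0.131), Ndufc2 (-0.26, adjusted p = 0.203) and Ndufaf4 (-0.30, adjusted p = 0.222). The difference of the western diet effect between region labels had a median of 0.15. Of the 44, 0 were called by edgeR or DESeq2, where edgeR called 0% of all genes. An unadjusted p under 0.05 was reached by 0 of the 44, against 907 of all 17088 genes. The smallest p there belonged to Ndufs1 (0.23, edgeR adjusted p = 0.935).

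The effect of NaKtide on the western diet differed between the region labels for 2 of the 44 genes, both assembly factors, where 8.84% of all genes were called, 4.39% higher and 4.44% lower. Ndufaf8 had 20.4 ± 4.45 CPM without and 19.5 ± 8.13 with NaKtide in the cerebellum label (n = 5 each), against 12.1 ± 2.51 (n = 5) and 26.1 ± 5.27 (n = 6) in the hippocampus label. The effect was higher in the hippocampus label by 1.17 on the log2 scale (SE 0.35, edgeR adjusted p = 0.0361). Ndufaf4 had 19.1 ± 1.35 without and 23.5 ± 3.07 with NaKtide in the cerebellum label, against 24.4 ± 4.78 and 19.2 ± 2.76 in the hippocampus label. Its effect was lower there by a log2 difference of -0.64 (SE 0.19, edgeR adjusted p = 0.0299).

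The median difference of effects was 0.52 over the 44 genes, against 0.10 for all genes. Of the 44, 17 reached an unadjusted p under 0.05, Ndufaf8 and Ndufaf4 included, as did 5075 of all 17088 genes. Ndufv3 (0.99, edgeR adjusted p = 0.0573), Ndufa2 (1.12, adjusted p = 0.0752), Ndufa13 (0.93, adjusted p = 0.0843), Ndufb7 (1.04, adjusted p = 0.0848), Ndufs1 (-0.39, adjusted p = 0.0854), Ndufs7 (0.82, adjusted p = 0.0930) and Ndufa4 (0.50, adjusted p = 0.181) did not pass. Without cerebellum western NaKtide replicate 3, 13 of the 44 were higher and 2 lower, among 4089 genes called. Both calls were lost without cerebellum western replicate 1, cerebellum western NaKtide replicate 1, 4 or 5, or hippocampus western NaKtide replicate 1 or 5.

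Over all 42 libraries, Ndufa2 varied most, with an SD of 0.64 in log2(CPM + 1) and a 6.12-fold span from lowest to highest library, followed by Ndufb7 (0.62) and Ndufaf8 (0.61). Ndufaf7, a methyltransferase that acts during assembly, varied least, with an SD of 0.14 and a 1.45-fold span, followed by Ndufs1 (0.18) and Ndufc2 (0.19). The SD was under 0.25 for 8 genes. Ndufa2, Ndufa13 and Ndufa8 deviated to the same side as the median of the other members in 40 of 42 libraries. Ndufaf4 did so in 11, Ndufs1 in 13 and Ndufaf1 in 23. These libraries share depth and length trends, so the agreement is a description.

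Reads of near-identical copies could be split. Processed pseudogenes at least 95% identical over 100 bases were found for 7 members, Ndufa12, Ndufb3, Ndufb4, Ndufb11, Ndufs3, Ndufs5 and Ndufs6, whose values are uncertain to that extent. In the hippocampus comparison of NaKtide on the western diet the log2 fold change of the pseudogene Gm16056 was 0.97 (SE 0.45) against 0.47 for Ndufb4, and that of Gm12251 was 0.66 (SE 0.19) against 0.49 for Ndufs3. The other 6 pairs lay closer together, for example 0.98 for Ndufs6b and 0.95 for Ndufs6. Gm16056 had a mean count of only 7.81. Some copies held far more counts. Ndufb4c, 100% identical to Ndufb4 over 390 bases, had a mean count of 620.8 against 692.2 for Ndufb4. Gm15920 had 428 against 858.2 for Ndufa12. Summing copies with members left 27 higher and 1 lower. Exons overlap another gene on the opposite strand for 65.6% of Ndufaf2, 39% of Ndufb6 and 30% of Ndufa13, and on the same strand, with Gm49356, for 19.5% of Ndufb9. Mean counts of those neighbours were 0, 20.5, 3.74 and 2.4 against 162.5, 440.5, 1911 and 1827 for the members.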

How the data were processed

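Polyadenylated RNA of 42 mouse brain libraries was sequenced with a stranded kit per the labels. Trimmomatic 0.38, HISAT2 2.1.0, DESeq2 1.20.0 and build GRCm38 are named per the submitters' processing notes, while the read counter, its strand setting and the gene models behind the counts were not given in the sources used here. For each gene, the authors deposited a raw count, a normalized count (signal, each count divided by a size factor of its library) and FPKM computed from the normalized counts. Tests used the raw counts and levels per length the FPKM. All value columns matched a sample (0 did not).

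All 4 groups of a region label entered 1 fit with edgeR 4.0.16 in R 4.3.3 (filterByExpr, TMM, quasi-likelihood F test), which tested 16338 genes in the cerebellum label, 16442 in the hippocampus label and 17088 over both. A gene was called at a Benjamini-Hochberg adjusted p under 0.05. Levels are CPM with TMM factors, and intervals cover the spread between libraries. Members and gene lists were chosen with earlier results of these data known. Named genes are, per role, the smallest p and the largest change where members were called, all calls against the majority, and otherwise the 3 smallest p. The code was checked on simulated data. Alternatives were DESeq2 1.42.0 and its size factors, no count filter, a replicate block, 2 surrogate variables (sva 3.50.0) and the compared groups only. Others were summed copies, leaving out libraries, and removal of length or length and GC trends. Those trends were splines fitted per library and passed to edgeR as offsets. Positions are from GENCODE M21 on GRCm38 and promoters from RefSeq on GRCm38.p6. The sequence of Ndufa2 and the values of 1 core subunit are not reported here.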

Additional observations from a re-analysis of the deposited data

Results flagged for a closer look

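In 8 of the 200 groups of libraries checked among the named members, the highest library stood apart from the others of its group. This is not above the about 1 in 20 that the rule marks by chance in independent groups. Most members move together over libraries, so the 200 checks are not independent and that rate cannot judge the count. Cerebellum western replicate 3 held 3 of them, with 361.7 CPM of Ndufa4 (others 237.1 to 272.4), 192.5 of Ndufa6 (135.1 to 147.8) and 92.04 of Ndufc2 (67.11 to 72.6). Hippocampus western replicate 5 held 2, with 31.32 CPM of Ndufaf2 (13.09 to 16.83) and 6.781 of Ndufaf6 (3.307 to 4.245). The others were 10.88 CPM of Ndufaf6 in cerebellum control replicate 2 (6.484 to 7.545), 61.13 of Ndufaf3 in cerebellum western replicate 1 (42.29 to 47.42) and 243.5 of Ndufv2 in hippocampus control NaKtide replicate 4 (184.0 to 199.5).

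The effect of NaKtide on the western diet differed between the region labels for Ndufaf8 by 1.171 and for Ndufaf4 by -0.6443 on the log2 scale, with edgeR adjusted p of 0.0361 and 0.0299 for the difference itself.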

How the results depend on the processing

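Within the cerebellum label, same-numbered libraries of different groups correlated with a median of -0.06 (12 of 30 pairs over 0.1, highest 0.66). Within the hippocampus label the median was -0.10 (10 of 31, highest 0.45). Differently numbered pairs had medians of -0.04 and 0.02. Pairing of libraries across the 2 region labels was not checked, and the main fit over both labels treated them as independent. For NaKtide on the western diet in the hippocampus label, members higher and lower were 27 and 1, with 5542 of all genes called. They were 24 and 1 with the replicate block (5221 genes called) and 18 and 0 with the length trend removed (4546). They were 21 and 1 with no count filter (4426) and 29 and 2 with 2 surrogate variables (6665). Leaving out single libraries gave 12 to 32 and 1 to 2. Alternatives chosen after seeing the data gave 14 and 0 with length and GC trends removed (3479 genes called), where Ndufs1 reversed to 0.021 (edgeR adjusted p = 0.910). They gave 27 and 1 with copies summed (5538), and 11 and 0 without the 3 libraries richest in mitochondrial counts (3006).

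Members lower between region labels in control mice were 4, with 376 of all genes called. They were 7 with DESeq2 size factors (489 genes called) and 27 with DESeq2 (1684). They were 17 with the length trend removed (974), 20 with length and GC trends removed (1259) and 0 to 32 leaving out single libraries. They were 0 with no count filter, the replicate block, 2 surrogate variables or the compared groups only. They were also 0 with hippocampus control 5 and 6 summed, or without the libraries with Xist. For the region difference of NaKtide on the western diet the counts were 1 higher and 1 lower, with 1510 of all genes called. They were 2 and 2 with DESeq2 (2164 genes called), 0 and 1 with no filter (794) and 4 and 2 with the replicate block (2324). They were 2 and 1 with the length trend removed (1596) or 2 surrogate variables (1073), and 0 and 2 without the libraries with Xist (1324). They were 0 and 0 with length and GC trends removed (583) or without the 3 mitochondria-rich libraries (0). Leaving out single libraries gave 0 to 13 and 0 to 2.

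In the cerebellum label, members lower with NaKtide on the control diet (0) were 16 with DESeq2 (1360 genes called) and 0 to 26 (0 to 1 higher) leaving out single libraries. Members lower with the western diet (0) were then 0 to 11. The counts of 26 and 11 came with 4386 and 841 genes called. With 2 surrogate variables the medians were -0.0059 for NaKtide on the control diet, -0.052 for the diet and 0.075 for the interaction. In the hippocampus label, the western diet gave 1 lower with DESeq2, and 21 lower and 1 higher with 2 surrogate variables. It gave 6 lower without the libraries with Xist and 0 to 1 lower leaving out single libraries. The 1 came without hippocampus control replicate 6, where 515 of all genes were called. The interaction gave 1 lower with 2 surrogate variables. The other counts of this label are not set against all genes called here. They therefore do not show a change specific to complex I. The cause of these changes was not tested. The median log2 fold change of members kept its sign under each single left-out library in all comparisons but 3, all with reported medians within 0.15 of 0. Counts reached down to 25 per member and library, and the part of counting error in the spread of low members such as Ndufaf6 was not computed.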
